A study of Rattus norvegicus with 24 samples.

Results

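Nrf2, encoded by Nfe2l2, is the transcription factor that switches on antioxidant and detoxifying genes, and the genes described here are Nfe2l2, its inhibitor Keap1 and 8 of its classical targets. They were taken by name from the reference genes (identifiers starting ENSRNOG) of 24 rat frontal cortex libraries, and 9 of the 10 listed genes were found among 32883 reference genes. Srxn1, encoding sulfiredoxin, was not found by that name in any library and has no value here. The rats were adult male Sprague-Dawley rats that inhaled a particulate aerosol of tungsten, a metal. Control rats had 0 mg/m3 (n = 8, replicates 49 to 56), Low rats 5 mg/m3 (n = 8, replicates 57 to 64) and High rats 80 mg/m3 (n = 8, replicates 65 to 72). All rats shared strain and sex, and RNA was taken the day after the exposure. Every library title also holds the word Repeat, which the titles do not explain. The comparisons ask whether the oxidative stress programme of the cortex differed between the 3 concentrations.

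In resting cells, Keap1 holds Nrf2 in the cytoplasm and passes it to a Cul3 ubiquitin ligase for degradation. Oxidants and electrophiles modify cysteines of Keap1, Nrf2 then escapes, pairs with a small Maf protein and binds antioxidant response elements near its target genes. In brain, this response is known to be strong in astrocytes, which supply neurons with glutathione precursors. Much of the regulation acts on Nrf2 protein, which RNA sequencing does not measure.

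The antioxidant response element has the core TGACNNNGC, where N is any base, and a looser form is TGANNNNGC. Both were searched on both strands, and every strict match is also a loose match. The windows ran from 250 bases before to 50 bases after each start site in RefSeq (build GRCr8). Of all 33469 promoters in that table, 12.1% held the strict core and 40.5% the loose form. The table had entries for 8 of the 10 genes. Of their 9 entries, 3 held a strict match and 7 a loose one. The stretches around the matches in Gclm, Txnrd1 and Slc7a11 are shown: the first 2 are the strict matches that lie before a start site, and the third is a loose match in the gene with the widest spread between rats. Whether Nrf2 binds there was not measured. The capitals mark the match, and where it lies on the other strand it reads as the reverse complement.
Gclm, chr2:213031933-213032001, plus strand: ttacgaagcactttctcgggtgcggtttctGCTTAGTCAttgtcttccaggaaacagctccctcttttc
Txnrd1, chr7:22755944-22756012, minus strand: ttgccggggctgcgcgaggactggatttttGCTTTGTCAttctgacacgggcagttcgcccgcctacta
Slc7a11, chr2:136668409-136668477, minus strand: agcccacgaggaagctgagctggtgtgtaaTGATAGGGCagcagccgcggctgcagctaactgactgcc

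The match in Gclm read TGACTAAGC on the opposite strand, with its first base in the printed direction at -172 from the start site. The match in Txnrd1, in the second of its 2 promoter entries, read TGACAAAGC on the opposite strand, at -78. The Slc7a11 match, at -183, was of the loose form only. The strict match in Nfe2l2 was TGACGCCGC, 39 bases after the start. Keap1 and Nqo1 each held 1 loose match, and Srxn1 held 3. The window of Gclc held neither form, which says only that these letters are not in it.

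Expression was read from the per-base read coverage of each gene, divided by the sum over reference genes in its library and multiplied by 1000000, called scaled coverage below. As a value per base, it allows levels of different genes to be compared. The summed coverage of reference genes per library, in units of 1000000, ranged from 1.67 to 2.82 for Control, from 1.64 to 3.07 for Low and from 1.77 to 2.67 for High. The ratio of the coverage to the FPKM column, which by the usual definition of FPKM reflects the bases a library contributed, stood at 5.05 to 7.86 gigabases among Control rats, 3.34 to 6.42 among Low rats and 4.95 to 7.65 among High rats. The deposited tables hold no read counts per gene, so no counting error is given. Libraries 56 to 62 had been grouped in an earlier look at these data from a pattern in them, which is no condition, and are left out where named. They are Control replicate 56 and Low replicates 57 to 62, so Low replicates 63 and 64 are the only Low rats outside them. With these libraries left out or as a covariate, a lost call in a Low comparison may come from few Low rats alone. The Low tables differ in make-up from the others: they list 0 assembled loci outside the reference, against 46334 to 159573 in Control and 50235 to 64010 in High. Each of the 9 genes also had an assembled locus on its own strand in all 8 Control and all 8 High libraries, and these rows were not used. This difference in the tables and the Low exposure cannot be told apart. All 5 markers of cortical excitatory neurons were found, with a summed scaled coverage from 759 to 1114 among Control rats, from 635 to 1078 among Low rats and from 369 to 1053 among High rats. Control replicate 49 stood apart: its choroid plexus marker sum was 72.2 (group median 8.91), and its neuron, astrocyte and microglia marker sums were the lowest of its group. Of the 5 choroid plexus markers, 2 had a mean of at least 1 over all rats. High replicate 67 also stood apart, with an excitatory neuron marker sum of 369 (group median 967). Without High replicate 67, 0 of the 9 genes passed in any comparison, as with it. High replicate 65 had a striatum marker sum of 930 (group median 288), the highest of all rats. It was the lowest High rat for Gclm and the highest High rat for Hmox1 and Gsr. Without High replicate 65, 0 of the 9 genes passed in any comparison. The part of striatal tissue in its values was not tested.

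In Control, Keap1 was the most abundant of the 9 genes and Hmox1 the least. The order of mean scaled coverage was Keap1 (39.7 ± 2.98, SD, n = 8), Txnrd1 (37.4 ± 4.63), Gclc (35.4 ± 4.76), Gsr (30.9 ± 3.24), Slc7a11 (23.8 ± 6.97), Gclm (21.1 ± 4.17), Nfe2l2 (18.9 ± 1.84), Nqo1 (14.3 ± 2.36) and Hmox1 (5.85 ± 1.35). Neighbours in this order overlapped over the Control rats, except Nqo1 and Hmox1. Nqo1 was above Hmox1, and Nfe2l2 above Nqo1, within each of the 24 rats. The median scaled coverage over the 15644 genes tested was 15.3, so 7 of the 9 had a Control mean above it. Keap1 varied least, with a coefficient of variation of 7.51% in Control, and Slc7a11 most, with 29.3%. The median over all genes tested was 16.9%.

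**Figure D1:**
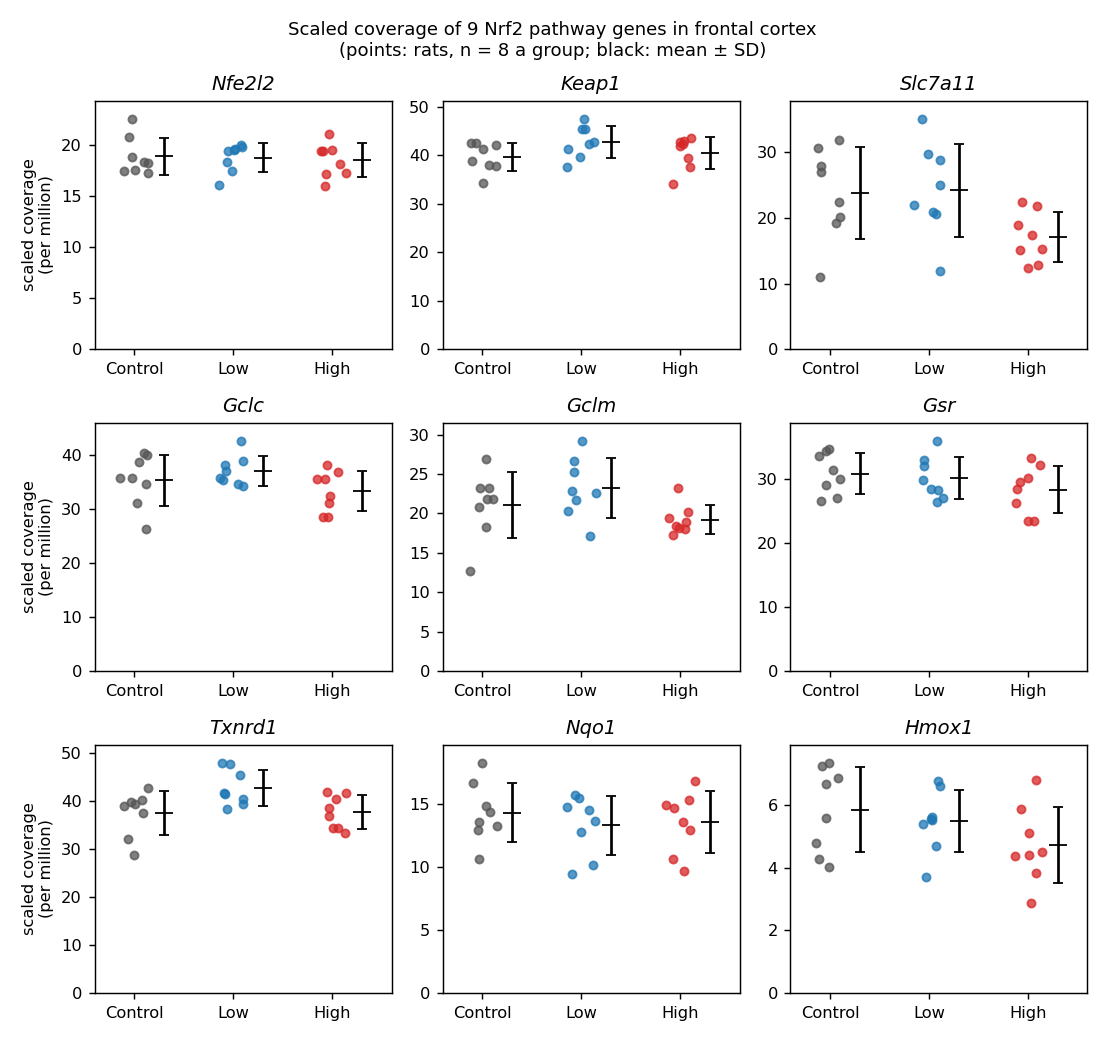
Scaled coverage (per 1000000, vertical axis from 0) of the 9 genes in each rat of Control, Low and High (points, 8 a group), with mean ± SD in black. The 3 groups overlap for every gene. Slc7a11 has the widest spread for its level in Control and Low, and Hmox1 in High.

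None of the 9 genes passed the test in any comparison. In Low against Control, 0 of 9 passed an adjusted p of 0.05 (limma on log2(scaled coverage + 1), Benjamini-Hochberg over all genes tested), where 6.11% of all genes passed. In High against Control it was 0 of 9, where 0% of all genes passed in limma, with 330 genes (2.11%) at an unadjusted p under 0.05. Exact Wilcoxon tests also called 0 genes there, with 887 at an unadjusted p under 0.05. In Low against High it was 0 of 9, where 11.7% of all genes passed. At an unadjusted p under 0.05, the 9 genes gave 1 in Low against Control, 1 in High against Control and 3 in Low against High, beside 18.4%, 2.11% and 29.1% of all genes. In each comparison, 0 of the 9 had groups that did not overlap, beside 1.53%, 0.00639% and 2.26% of all genes. The comparisons with Control share its 8 rats. On the log2(value + 1) scale, changes of low genes are understated.

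Nfe2l2 (ENSRNOG00000001548, chromosome 3, 62497571 to 62524996, this and later gene positions as in the tables, whose build is in doubt) had scaled coverage of 17.3 to 22.6 (median 18.3) over Control rats, 16.1 to 20.1 (median 19.5) over Low rats and 15.98 to 21.1 (median 18.8) over High rats. The groups overlapped almost fully. Its log2 fold change was -0.01 in Low against Control (95% interval -0.14 to 0.13, adjusted p = 0.974, limma) and -0.03 in High against Control (-0.16 to 0.11, adjusted p = 0.999). Of the 9 genes, only Keap1 had narrower intervals.

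Keap1 (ENSRNOG00000020878, chromosome 8, 22250518 to 22259779), the adaptor that hands Nrf2 to the ligase, had 34.3 to 42.6 (median 40.1) over Control rats, 37.6 to 47.5 (median 42.6) over Low rats and 34.1 to 43.6 (median 42.1) over High rats. Of the Low rats, 6 of 8 lay above the Control median. Its log2 fold change was 0.11 in Low against Control (-0.02 to 0.23, adjusted p = 0.362, limma) and 0.03 in High against Control (-0.09 to 0.15, adjusted p = 0.999).

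Next come the genes of glutathione supply. Slc7a11 (ENSRNOG00000010210, chromosome 2, 139453774 to 139528162) encodes the cystine carrier of the cystine/glutamate exchanger, which brings in the building block of glutathione. Its scaled coverage was 10.97 to 31.9 (median 24.7) over Control rats, 11.8 to 35.0 (median 23.5) over Low rats and 12.3 to 22.4 (median 16.4) over High rats. The High rats sat in the lower part of the range, and 0 of 8 lay above the Control median, but the groups overlapped, and Control replicate 49 and Low replicate 57 lay below every High rat. The log2 fold change was -0.42 in High against Control (-0.83 to -0.01, adjusted p = 0.999, limma) and 0.46 in Low against High (0.05 to 0.87, adjusted p = 0.132). Without Low replicate 57, the Low against High value was 0.59 and passed (adjusted p = 0.0316, limma), where 8.55% of all genes passed as higher. It was 0.23 with libraries 56 to 62 as a covariate (adjusted p = 0.71), 0.30 without them (adjusted p = 0.644) and 0.25 without scaling (adjusted p = 0.763).

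Gclc and Gclm encode the catalytic and the modifier subunit of glutamate-cysteine ligase, the rate-limiting enzyme of glutathione synthesis. Gclc (ENSRNOG00000006302, chromosome 8, 85059051 to 85097468) had 26.4 to 40.3 (median 35.7) over Control rats, 34.3 to 42.6 (median 36.5) over Low rats and 28.6 to 38.3 (median 34.0) over High rats. All 8 Low rats lay above the High median. Its log2 fold change was 0.15 in Low against High (-0.01 to 0.32, adjusted p = 0.206, limma). Against Control it was 0.08 for Low and -0.08 for High.

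Gclm (ENSRNOG00000013409, chromosome 2, 225827504 to 225847874) had 12.7 to 26.9 (median 21.8) over Control rats, 17.1 to 29.2 (median 22.7) over Low rats and 17.2 to 23.2 (median 18.7) over High rats. High rats were packed in the lower part of the Low range, with 7 of 8 Low rats above their median. The log2 fold change was 0.25 in Low against High (0.02 to 0.48, adjusted p = 0.147, limma). With median-of-ratios scaling this value was 0.16, and with no scaling 0.04. Against Control it was 0.14 for Low and -0.11 for High.

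Gsr (ENSRNOG00000014915, chromosome 16, 62197617 to 62241361), glutathione reductase, which returns oxidised glutathione to its reduced form, had 26.6 to 34.8 (median 30.8) over Control rats, 26.4 to 36.0 (median 29.2) over Low rats and 23.5 to 33.4 (median 29.1) over High rats. Its log2 fold change was -0.03 in Low against Control and -0.12 in High against Control (adjusted p = 0.853 and 0.999, limma). Gsr was the only one of the 9 to overlap another reference gene, AABR07026063.1 on the opposite strand.

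Of the 9 genes, Txnrd1 of the thioredoxin arm had the lowest adjusted p against Control. Txnrd1 (ENSRNOG00000009088, chromosome 7, 26946125 to 26984400) encodes the cytosolic thioredoxin reductase, a selenoprotein that keeps thioredoxin reduced. It had 28.7 to 42.6 (median 39.2) over Control rats, 38.3 to 47.9 (median 41.5) over Low rats and 33.2 to 41.9 (median 37.7) over High rats. Of the Low rats, 7 of 8 lay above the Control median and 8 of 8 above the High median. The log2 fold change was 0.19 in Low against Control (0.04 to 0.35, adjusted p = 0.154, limma), 0.01 in High against Control (-0.14 to 0.17) and 0.18 in Low against High (0.02 to 0.33, adjusted p = 0.119). The Low against Control value was 0.14 under median-of-ratios scaling and passed (adjusted p = 0.0277, limma; 0.985% of all genes passed as higher), and 0.22 with the mitochondrial genome left out of the scaling sum, where it also passed (adjusted p = 0.0389; 5.28% of all genes). Without scaling, the Low against Control value was 0.16 and did not pass (adjusted p = 0.9996, limma). It was 0.13 both with libraries 56 to 62 as a covariate (adjusted p = 0.709, limma) and without them (adjusted p = 0.827). The Low against High value was 0.08 under median-of-ratios scaling (adjusted p = 0.18, limma), 0.10 with the covariate and without those libraries, and -0.04 without scaling.

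The remaining targets handle quinones and heme. Nqo1 (ENSRNOG00000012772, chromosome 19, 38422164 to 38437180), a quinone reductase, had 10.6 to 18.3 (median 14.0) over Control rats, 9.43 to 15.7 (median 14.1) over Low rats and 9.67 to 16.9 (median 14.2) over High rats. The medians were alike, and the log2 fold change was -0.10 in Low against Control (-0.35 to 0.14, adjusted p = 0.678, limma) and -0.08 in High against Control (-0.32 to 0.17, adjusted p = 0.999). Low replicates 63 and 64, at 9.43 and 10.2, lay below the other Low rats (12.8 to 15.7). With libraries 56 to 62 left out, these are the only Low rats, and the Low against Control value was -0.44 (adjusted p = 0.421, limma).

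Hmox1 (ENSRNOG00000014117, chromosome 19, 14508616 to 14515456), the inducible heme oxygenase, which cuts heme into biliverdin, iron and carbon monoxide, had 4.02 to 7.35 (median 6.13) over Control rats, 3.69 to 6.76 (median 5.55) over Low rats and 2.88 to 6.80 (median 4.44) over High rats. The medians were lower in the exposed groups, and 1 of 8 High rats lay above the Control median. The log2 fold change was -0.26 in High against Control (-0.55 to 0.02, adjusted p = 0.999, limma) and -0.07 in Low against Control (-0.35 to 0.22). It had a coefficient of variation of 23.1% in Control. In bulk tissue, fewer cells of a type and less RNA per cell cannot be told apart.

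**Figure D2:**
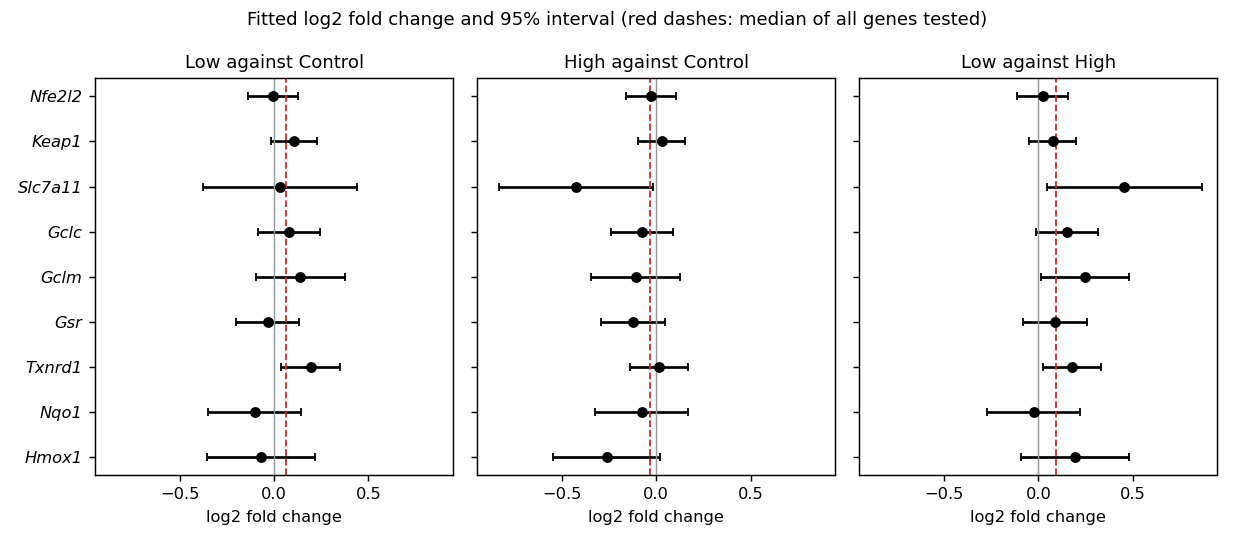
Fitted log2 fold change of the 9 genes (points) with 95% intervals (bars) in the 3 comparisons, on the log2(scaled coverage + 1) scale, with the median of all genes tested as a red dashed line. Slc7a11 has the widest intervals, and Slc7a11, Gclm and Txnrd1 have intervals above 0 in Low against High.

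As a list, the 9 genes had a median log2 fold change of 0.03 in Low against Control, -0.08 in High against Control and 0.15 in Low against High. The medians of all genes tested were 0.06, -0.03 and 0.09. Values above 0 numbered 5 of 9, 2 of 9 and 8 of 9, beside 66.5%, 36% and 69.9% of all genes. Without scaling, the list median was 0.10 in High against Control and -0.06 in Low against High, where the median of all genes moved to 0.14 and -0.12. In the deposited FPKM columns, where the median of all genes was 0.53 in Low against Control and 0.52 in Low against High, all 9 genes passed as higher in Low in both comparisons, as did 86.5% and 86.2% of all genes, with list medians of 0.49 and 0.54. In the TPM columns, 2 of 9 passed as higher in Low against Control and 1 of 9 in Low against High, beside 20.4% and 19.2% of all genes.

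**Figure D3:**
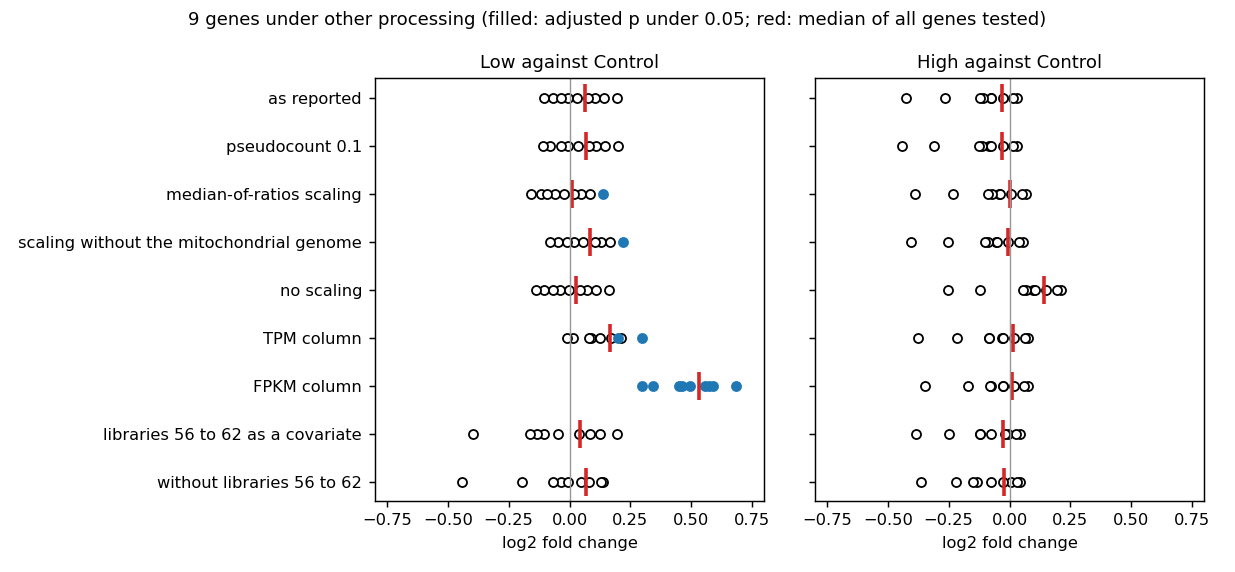
Log2 fold changes of the 9 genes (circles, filled where the adjusted p is under 0.05) under 9 ways of processing, for Low and for High against Control, with the median of all genes tested as a red bar. All 9 genes are filled with the FPKM column in Low against Control, where the red bar stands at 0.53.

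Of 12 other regulators of Nrf2, 0 passed against Control at either dose, and 2 were higher in Low than in High, where 5.3% of all genes passed in that direction. Cul3 (ENSRNOG00000015633), the scaffold of the ligase that Keap1 recruits, had 48.5 to 73.2 (median 64.2) over Control rats, 58.6 to 81.5 (median 73.4) over Low rats and 51.3 to 70.8 (median 57.1) over High rats. The log2 fold change was 0.32 in Low against High (0.15 to 0.48, adjusted p = 0.00926, limma), with overlapping groups. Mafg (ENSRNOG00000036697), a small Maf partner of Nrf2, had 46.8 to 60.7 (median 52.8) over Control rats, 52.7 to 63.0 (median 57.3) over Low rats and 46.8 to 54.4 (median 50.6) over High rats, with a log2 fold change of 0.20 in Low against High (0.08 to 0.32, adjusted p = 0.0279, limma). Neither passed without scaling (0.10 for Cul3 and -0.02 for Mafg), with libraries 56 to 62 left out (0.31 and 0.21) or with these libraries as a covariate (0.32 and 0.17). Only Low replicates 63 and 64 lie outside these libraries, so the calls lost there cannot tell a smaller difference from fewer rats. Mafg also lost its call under median-of-ratios scaling (0.10, adjusted p = 0.359, limma) and when Low replicate 62, Low replicate 64, High replicate 67 or High replicate 71 was left out. Without High replicate 67, Cul3 stood at 0.29 (adjusted p = 0.0231, limma) and Mafg at 0.18 (adjusted p = 0.0601). The endothelial sum rested on 3 of 5 markers found, none at 0 in every rat and 2 with a mean of at least 1. It was 63.9 to 96.6 (median 81.1) over Control rats, 75.5 to 100.5 (median 87.2) over Low rats and 63.0 to 76.3 (median 75.2) over High rats. The meningeal sum (4 of 5 found, none at 0 in every rat) had a median of 92.1 over Control rats (67.2 to 161.1), 54.0 over Low rats (36.8 to 114.8) and 98.0 over High rats (33.0 to 120.9). Their part in the Low against High values of these and the 9 genes was not tested.

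The other regulators with the largest values did not pass. In Low against Control, Bach1, a repressor at antioxidant response elements, stood at 0.26, Maff at 0.23 and Cul3 at 0.22. In High against Control, Maff stood at 0.31, Bach2 at -0.17 and Nfe2l3 at -0.12. In Low against High, Bach2 stood at 0.30 and Gsk3b, a kinase that marks Nrf2 for degradation, at 0.21.

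Of 24 other Nrf2 target genes, 21 were tested and 0 passed in each of the 3 comparisons. Pgd was not found by name, and Gpx2 and Osgin1 were under the minimum mean of 1. The largest values in Low against Control were -0.34 for Cbr1, a carbonyl reductase, 0.20 for Gsta4 and 0.17 for Fth1, the ferritin heavy chain. In High against Control they were 0.19 for Gsta4, -0.17 for Ephx1 and 0.16 for Tkt. In Low against High they were -0.37 for Cbr1, 0.20 for Fth1 and 0.19 for Me1, malic enzyme, whose adjusted p was 0.0509 (limma).

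Across rats, some of the 9 genes varied together when scaled by the reference sum, and most of these pairs did not pass under median-of-ratios scaling. After each group's mean was subtracted, 32 of 36 pairs of the 9 genes had a Pearson r above 0 over 24 rats, with a median r of 0.30. A two-sided permutation test with 100000 permutations within groups, adjusted over the 36 pairs, called 11 pairs by r and 7 by Spearman's rho, all 7 of them among the 11. The p and adjusted p printed with a pair below are those of r, except where they are given for rho.

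The highest r was that of Gclc and Txnrd1, 0.815 (rho = 0.747, p = 3e-05, adjusted p = 0.00108, permutation test). It was 0.705 without the 2 rats farthest from the Gclc median, and 0.925 within Control, 0.591 within Low and 0.775 within High. Gclm and Txnrd1 had r = 0.679 (rho = 0.569, p = 0.00115, adjusted p = 0.0106, permutation test) and 0.416 without the 2 farthest rats. Gclc and Gclm, subunits of the same enzyme, had r = 0.668 (rho = 0.577, p = 0.00092, adjusted p = 0.0106, permutation test) and 0.515 without the 2 farthest. Gclm and Slc7a11 did not pass (adjusted p = 0.0552, permutation test), nor did Gsr with Gclc (r = 0.209), Gclm (r = 0.144), Slc7a11 (r = 0.0124) or Txnrd1 (r = 0.349). Gsr passed with Keap1 by r (0.545, adjusted p = 0.0389, permutation test) but not by rho (0.505, adjusted p = 0.0686).

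Keap1 and Txnrd1 had r = 0.643 (rho = 0.710, p = 0.00118, adjusted p = 0.0106, permutation test) and 0.584 without the 2 farthest. Txnrd1 and Slc7a11 had r = 0.628 (rho = 0.537, p = 0.00215, adjusted p = 0.0155, permutation test) and 0.429 without the 2 farthest. Their r was 0.905 within Control and 0.208 within High. By rho, Txnrd1 and Slc7a11 did not pass (adjusted p = 0.0511, permutation test). Nfe2l2 and Nqo1 had r = 0.591 (rho = 0.591, p = 0.00413, adjusted p = 0.0248, permutation test) and 0.453 without the 2 farthest. Of the 8 pairs with Nfe2l2, 7 had r above 0, from -0.02 to 0.59, and 3 passed by r (with Keap1, Hmox1 and Nqo1). The pair with Hmox1 did not pass by rho (adjusted p = 0.11, permutation test).

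Control replicate 49 was the lowest Control rat for Gclc, Gclm, Txnrd1 and Slc7a11, and Low replicate 57 the lowest Low rat for Gclm, Txnrd1 and Slc7a11. The number of pairs past the threshold was 3 without Control replicate 49 and 4 without both rats. Both rats were also the lowest of their groups for Mafg, Bach1 and Gsk3b, and the highest for Fth1. The part in the pairs of what these rats share, or of the choroid plexus and glial marker sums of Control replicate 49, was not tested. Under median-of-ratios scaling 3 pairs passed: Nfe2l2 and Nqo1 (r = 0.675, adjusted p = 0.0313, permutation test), and Keap1 with Gclm and with Slc7a11, both with r below 0 (-0.62 and -0.64, adjusted p = 0.0322 each). Gclc and Txnrd1 had r = 0.337 there (adjusted p = 0.314).

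**Figure D4:**
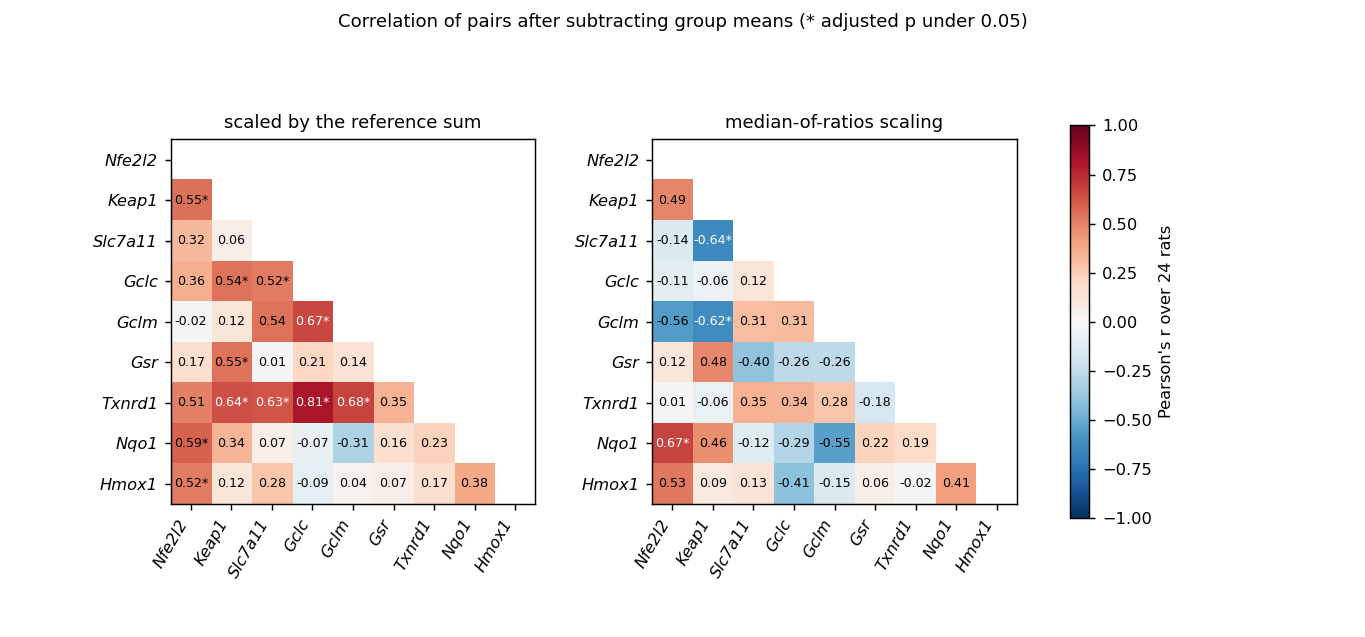
Pearson's r (colour and number) of each pair of the 9 genes over 24 rats after subtracting group means, with scaling by the reference sum on the left and median-of-ratios scaling on the right, and stars for an adjusted p under 0.05. The left panel holds 11 stars and the right panel 3.

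Many genes shared these patterns. The share of the 15644 genes with r over 0.5 was 43.6% for Txnrd1, 35.4% for Gclc, 31.8% for Gclm and 29.96% for Slc7a11, against 12.2% for Nfe2l2 and 1.83% for Hmox1. As a description over 24 rats, all from the same 24 libraries, the genes most like Nfe2l2 were Uap1l1 (r = 0.872), Rasip1 (r = 0.854) and Ndp (r = 0.853). The gene most like each of the others was Dync1i2 for Keap1 (r = 0.865), Art3 for Hmox1 (r = 0.769), Dalrd3 for Nqo1 (r = 0.817), Ddx3x for Gclc (r = 0.896), Smim13 for Gclm (r = 0.921), Ganab for Txnrd1 (r = 0.952), Ptpn13 for Slc7a11 (r = 0.898) and Ints14 for Gsr (r = 0.814).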

How the data were processed

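RNA from 24 frontal cortex samples was sequenced as TruSeq stranded mRNA libraries. Per the labels, the authors used FastQC, Trimmomatic, TopHat2 and StringTie (versions not given) and the build mRatBN7.2. Positions are printed as in the tables, whose 7680 clone names starting AABR07 belong to an earlier assembly, so the build of the positions is in doubt. The extract label speaks of cell lines, the tissue label of cortex. The deposited tables give coverage (a signal per base), FPKM, TPM and, in Control and High, a TPM score, with sums of 1.70 to 1.98 in units of 1000000, where assembled loci are listed too.

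From these, coverage of reference genes was scaled to 1000000 per library, and 15644 genes with a mean of at least 1 were tested with limma 3.58.1 in R 4.3.3 (trend, robust, 24 rats in 1 fit, log2 with pseudocount 1). Pairs were tested in Python 3.11.15 by permutation within groups. Scripts were tested on simulated data. All 9 genes, list genes past the threshold (at most 6), and the 3 with the largest change per list and comparison are named. Members and lists were chosen with earlier results of these data known. Alternatives were the pseudocount, filters, scalings, columns, tests, left-out rats, and libraries 56 to 62, which an earlier look at these data had grouped from a pattern and which are no condition.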

Additional observations from a re-analysis of the deposited data

Results flagged for a closer look

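Values far from the rest of their group were sought with Dixon's criterion in 66 sets of 8 rats (the 9 genes and the named genes of both lists, in each group), where about 5% of sets, or 3.3, pass by chance; 6 did, none of them in the 9 Nrf2 pathway genes. Bach1 scaled coverage was 1.01 in Control replicate 49 (others 3.28 to 4.98) and 2.03 in Low replicate 57 (others 4.19 to 5.46). Gsk3b was 5.80 in Control replicate 49 (others 22.2 to 31.7) and 7.41 in Low replicate 57 (others 22.7 to 33.1). Fth1 was 2195 in Low replicate 57 (others 1626 to 1851), and Ephx1 was 23.9 in Low replicate 59 (others 14.4 to 18.8). Mafg (0.20) and Cul3 (0.32) differed between the doses by the test of Low against High itself, on the log2 scale.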

How the results depend on the processing

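No paired analysis was made, because each rat was in a single group and the labels name no pairs or blocks. The counts of Nrf2 pathway genes past the threshold stayed at 0 with a pseudocount of 0.1, no filter, a minimum mean of 5, exact Wilcoxon tests, only the groups compared, no scaling, and libraries 56 to 62 left out or as a covariate. Only Low replicates 63 and 64 lie outside those libraries, so the counts under these last settings say little about Low. The cause of the changes below was not tested, and changes of sign among values that did not pass are given only as values. All fold changes are log2.

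Without scaling, Slc7a11 was -0.000541 in Low against Control. In High against Control, Nfe2l2 was 0.15, Nqo1 0.0975, Gclc 0.105, Gclm 0.0679 and Gsr 0.0562. In Low against High, Nfe2l2 was -0.19, Keap1 -0.14, Gclc -0.0603, Txnrd1 -0.0352, Gsr -0.13, Mafg -0.0172 and the list median -0.0603, and 0 regulators passed. With median-of-ratios scaling, Slc7a11 was -0.0240 in Low against Control, Nfe2l2 0.0074 in High against Control, and in Low against High Nfe2l2 was -0.0690, Keap1 -0.0184 and Gsr -0.00495. There, 1 pathway gene (Txnrd1) and 1 regulator passed in Low against Control (6.94% of all genes in either direction), and 1 regulator (Cul3) and 1 other target in Low against High (10.6%). With scaling that left out the mitochondrial genome, 1 pathway gene (Txnrd1) and 1 regulator passed in Low against Control (10.8% of all genes) and 1 other target in Low against High (16.7%), and Nfe2l2 was 0.0189 in Low against Control.

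With the FPKM column, 9 pathway genes, 9 regulators and 21 other targets passed in Low against Control (list median 0.49, 89.7% of all genes passed) and 9, 9 and 19 in Low against High (list median 0.54, 89.8%). In Low against Control, Nfe2l2 was 0.45, Hmox1 0.30, Nqo1 0.34 and Gsr 0.46, and Nqo1 was 0.37 in Low against High and Nfe2l2 0.0174 in High against Control. With the TPM column, 2 pathway genes (Keap1 and Txnrd1), 3 regulators and 4 other targets passed in Low against Control (25.4% of all genes), and 1 (Txnrd1) and 3 other targets in Low against High (25.2%). Nfe2l2 was 0.0867, Hmox1 0.0125 and Gsr 0.0783 in Low against Control, Nfe2l2 0.0189 in High against Control and Nqo1 0.0192 in Low against High.

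Without libraries 56 to 62, Slc7a11 was -0.0679 in Low against Control and Nfe2l2 0.0077 in High against Control, and in Low against High Nfe2l2 was -0.0416, Gsr -0.0412, and 0 regulators passed. With them as a covariate, Slc7a11 was -0.16 in Low against Control, and in Low against High Nfe2l2 was -0.0965, Keap1 -0.00222, and 0 regulators passed. The 11 correlated pairs became 36 without scaling, 3 with median-of-ratios scaling, 7 by Spearman's rho, 1 without libraries 56 to 62, and 4 without Control replicate 49 and Low replicate 57 together, a choice made after seeing the data.

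Leaving out each rat in turn gave 3 to 13 correlated pairs, with 3 without Control replicate 49, 6 without Control replicate 51, Low replicate 59, High replicate 66 or High replicate 71, and 7 without Control replicate 56 or High replicate 65. It gave 0 to 1 pathway genes past the threshold in Low against High (Slc7a11 without Low replicate 57), 0 to 1 regulators in Low against Control (1 without Low replicate 61), 1 to 2 regulators and 0 to 1 other targets in Low against High. Of 648 fold changes of the 9 genes, 21 changed sign: Nfe2l2 ran from -0.0220 to 0.0299 in Low against Control, -0.0544 to 0.0077 in High against Control and -0.0059 to 0.0525 in Low against High, Nqo1 from -0.0872 to 0.0373 in Low against High, Slc7a11 from -0.11 to 0.16 in Low against Control and Txnrd1 from -0.0371 to 0.0419 in High against Control. The tables give no reads per gene, so no counting error is given for low genes such as Hmox1.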
